A study of Mus musculus with 18 samples.

Results

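The 10 genes described here code for proteins of the acrosome and of sperm-egg fusion: Acr, Acrbp, Acrv1, Spaca1, Spaca3, Spaca4, Spaca7, Zpbp, Zpbp2 and Izumo1. They were taken by gene symbol from a deposited table of 20979 distinct symbols, and each of the 10 had 1 row. All 10 passed the filter on low values that left 13105 genes for testing, a mean of at least 1 FPKM (fragments scaled to transcript length and library size) over 18 libraries. RNA sequencing had been done on whole testis of ICR mice aged 10 weeks, with 3 libraries in each of 6 groups. The groups were control, AOS (10 mg/kg), HFD (high fat diet), HFD-AOS (the diet with AOS at 10 mg/kg), HFD-AOSFMT (the diet with an FMT labelled AOS 10 mg/kg) and HFD-conFMT (the diet with an FMT labelled control). The labels leave AOS and FMT as abbreviations, which are kept here, and they state neither how long the diet lasted nor how the FMT was made. Nothing in the labels ties a library to an animal of its own, so the p-values reflect the spread among these libraries, which may be partly technical.

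The acrosome is a secretory vesicle that round spermatids build from the Golgi apparatus and spread over the front of the nucleus as they elongate. It holds proteases, their binding partners and structural proteins, and its release at the egg's zona pellucida exposes membrane proteins that the sperm needs to fuse with the egg. In the testis the transcripts of these genes are made by germ cells during and after meiosis, so that their level in whole testis moves with the share of spermatids as well as with the RNA made per cell.

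Each library's values add up to between 588080.8 and 637004.9 FPKM, and the table gives no depth, so no counting interval is given. Control totals were 602524.9, 589844.5 and 588080.8 FPKM, and outside control only HFD 2 was under 602524.9, at 588564.9. Values and their overlaps are given without scaling to these totals, except where shares of a library are named. The median absolute log2 difference between a pair of libraries was 0.0785 to 0.137 within groups and 0.0770 to 0.152 between groups. One library stood apart: HFD-AOS 1 held the highest value of 12.98% and the lowest of 16.3% of the genes tested, and limma's array weights gave it the lowest weight of the 18 (0.329). Crisp1, made in the epididymis, reached 159 FPKM in control 3 and 104 FPKM in HFD-conFMT 2, with 8.60 FPKM in HFD-conFMT 3 and 2.71 FPKM or less elsewhere. Calls in the comparisons that use these libraries are also given without them.

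Promoter sequences are shown for 3 genes: Spaca4 and Spaca7, which were called between HFD-AOS and control, and Izumo1, the only one of the 9 genes with a window to hold a complete cyclic AMP response element (CRE), the site bound by the spermatid activator CREM. They come from RefSeq on GRCm38.p6, which had windows for 9 of the 10 genes and none for Acr. Positions count back from the transcription start, and each sequence runs 5′ to 3′ on the gene's own strand. Izumo1 is shown from -250 to -1 (chr7:45621561-45621810, plus strand), Spaca4 from -250 to -1 (chr7:45725817-45726066, minus strand) and Spaca7 from -250 to -8 (chr8:12572786-12573028, plus strand). The window of Acrbp, also called, lies almost wholly in an annotated untranslated region of another of its transcripts and is not shown. Capitals mark the motifs searched on both strands.
Izumo1: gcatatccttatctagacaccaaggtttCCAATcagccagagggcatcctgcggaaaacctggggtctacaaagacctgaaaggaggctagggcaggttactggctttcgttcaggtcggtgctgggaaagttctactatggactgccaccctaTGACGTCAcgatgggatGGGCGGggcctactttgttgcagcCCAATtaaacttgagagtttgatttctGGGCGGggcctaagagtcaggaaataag
Spaca4: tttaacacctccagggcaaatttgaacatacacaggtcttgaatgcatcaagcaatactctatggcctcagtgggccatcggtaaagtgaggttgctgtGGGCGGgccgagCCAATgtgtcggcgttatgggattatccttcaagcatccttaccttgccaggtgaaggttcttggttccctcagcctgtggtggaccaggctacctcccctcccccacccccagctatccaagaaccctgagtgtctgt
Spaca7: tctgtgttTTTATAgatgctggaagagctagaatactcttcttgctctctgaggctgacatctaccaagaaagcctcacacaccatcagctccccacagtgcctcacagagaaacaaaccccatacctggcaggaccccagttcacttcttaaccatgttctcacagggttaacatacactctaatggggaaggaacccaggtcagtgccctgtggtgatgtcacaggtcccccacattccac

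The motifs were the CRE (TGACGTCA), its half-site (TGACG, which every CRE contains), the TATA box (TATAAA), the CCAAT box (CCAAT), the GC box (GGGCGG) and the SOX core (ACAAT), in windows of 300 bases from 250 before to 50 after the start. The complete CRE was found in 1 of the 9 windows, that of Izumo1 at -96, and in 1.88% of all 27025 promoters. The half-site was found in 5 of 9 (Acrbp, Spaca1, Spaca3, Zpbp2 and Izumo1), against 21.0% of all promoters, and the Acrbp copy lies at -18. The GC box was found in 5 of 9 (Acrbp, Spaca1, Spaca4, Zpbp2 and Izumo1; 35.9% of all promoters) and the CCAAT box in 3 of 9 (Spaca4, Zpbp and Izumo1; 37.9%). The TATA letters were found in 1 of 9, on the opposite strand of Spaca7 at -242 (14.2% of all promoters), and the SOX core in 1 of 9, Acrv1 (31.6%). No motif was found in all 3 genes called between HFD-AOS and control: Spaca4 had a GC box and a CCAAT box, Acrbp a GC box and a half-site, and Spaca7 the reversed TATA letters. These are matches of letters and not sites of binding.

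All 10 genes were abundant, ranking from 174 (Acrbp) to 1719 (Izumo1) by mean level among the 13105 genes tested. On the FPKM scale, which is per length, Acrbp was highest with a mean of 462 over the 18 libraries, followed by Acrv1 at 304, Zpbp2 at 222 and Acr at 198. Spaca7 and Spaca4, both at 167, and Spaca1 at 162 came next, then Spaca3 at 148, Zpbp at 71.9 and Izumo1 at 71.0 FPKM. Acrbp ranked above Acrv1, and Acrv1 above Zpbp2, in 18 of 18 libraries with no overlap of their ranges. The ranges of Zpbp2 and Acr overlapped, with Zpbp2 higher in 17 of 18 libraries. Among the genes in the middle no order held, since Spaca7 exceeded Spaca4 in 8 and Spaca4 exceeded Spaca1 in 10 of 18 libraries. Spaca3 lay above Zpbp in 18 of 18 with a ratio of means of 2.05 and no overlap, while Zpbp exceeded Izumo1 in 11 of 18. The highest library exceeded the lowest by between 1.13 times for Zpbp and 1.55 times for Spaca4, so every difference described below is small.

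**Figure D1:**
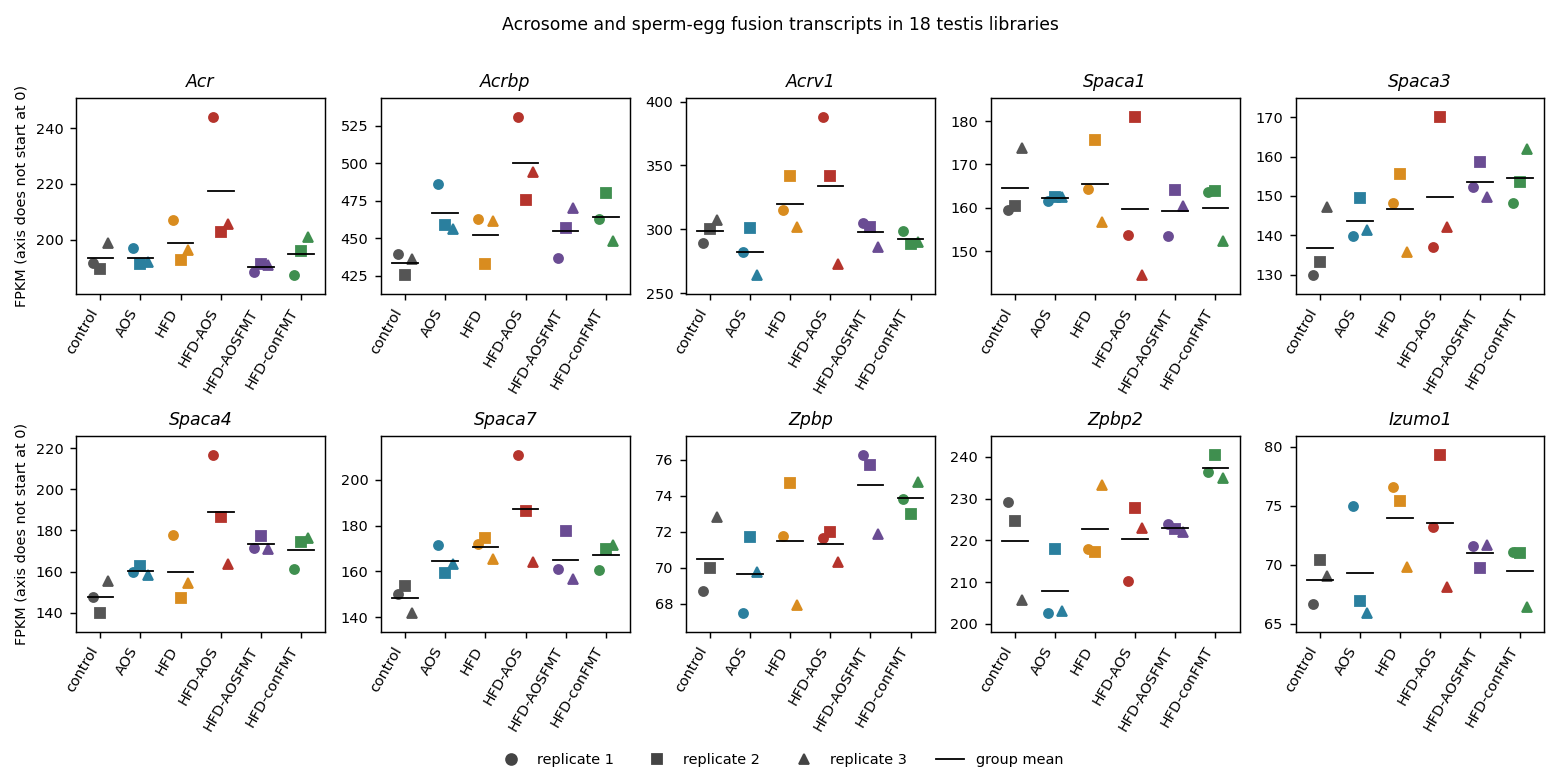
Level of each of the 10 genes in every library (FPKM, vertical axis, not starting at 0) by group (horizontal axis), with the replicate number as the marker shape and the group mean as a line. HFD-AOS 1 is the highest point of Acr, Acrbp, Acrv1, Spaca4 and Spaca7, and HFD-AOS 2 of Spaca1, Spaca3 and Izumo1.

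Calls among the 10 genes came only between HFD-AOS and control, where the acrosomal matrix gene Acrbp, the membrane gene Spaca4 and the acrosomal gene Spaca7 rose. Acrbp was 500 ± 28.2 against 434 ± 7.17 FPKM, Spaca4 189 ± 26.5 against 148 ± 7.83 and Spaca7 187 ± 23.4 against 149 ± 5.97 (mean ± SD, n = 3 in each group, as in all group values here). Limma, a linear model fitted across all genes on log2(FPKM + 1) with Benjamini-Hochberg adjustment at a threshold of 0.05, called these 3 of the 10 genes, all higher, where it called 2.48% of all genes. Of the 10, 9 were higher, with a median log2 fold change of 0.14 against -0.029 over all genes tested. That median was 0.088 without HFD-AOS 1, 0.082 without HFD-AOS 2 and 0.078 with quantile normalization. Without HFD-AOS 1, 0 of the 10 were called, and the limma adjusted p was 0.0804 for Acrbp, 0.0977 for Spaca4 and 0.0695 for Spaca7, with log2 fold changes of 0.16, 0.24 and 0.23. All 3 calls also ended with quantile normalization, with array weights, without control 2, without control 3, and without control 3 and HFD-conFMT 2 together. In whole tissue, a larger share of cells of a type and more RNA per cell cannot be told apart.

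Among the genes of the acrosomal contents, Acrbp codes for the protein that binds proacrosin, the inactive form of the protease acrosin, and helps pack it in the vesicle. It lies on chromosome 6 from 125049689 to 125063267 (GRCm38, the assembly of mm10). In control it was at 439, 426 and 436 FPKM and in HFD-AOS at 531, 476 and 494 FPKM. The lowest HFD-AOS library lay above the highest control library, and HFD-AOS 1 was the highest of all 18 (log2 fold change 0.20, SE 0.047, limma adjusted p = 0.0364). AOS without the diet was at 486, 459 and 456 FPKM, all above control, and HFD at 463, 433 and 462, which overlapped it. HFD-AOSFMT was at 437, 457 and 470 FPKM and HFD-conFMT at 463, 481 and 449 FPKM. Control was the lowest group for Acrbp and HFD-AOS the highest.

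Spaca7, on chromosome 8 from 12573029 to 12600744, codes for a protein that the acrosome releases. It was at 150, 154 and 142 FPKM in control and at 211, 186 and 164 FPKM in HFD-AOS. These do not overlap, although HFD-AOS 3 lay within the range of the HFD-AOSFMT and HFD-conFMT groups (log2 fold change 0.32, SE 0.071, limma adjusted p = 0.0333). AOS gave 172, 159 and 163 FPKM, HFD 172, 174 and 166 FPKM, HFD-AOSFMT 161, 177 and 157 FPKM and HFD-conFMT 161, 170 and 172 FPKM. Every one of the 15 libraries outside control thus lay above all 3 control libraries, whose highest value was 154 FPKM. The 5 comparisons with control share those 3 libraries, so this is a statement about control as much as about any treatment. The share of all genes set apart from control in this way was not taken, so how common it is cannot be said. As a share of each library's total, the separation did not hold. Control 2 (153.5 of 589844.5 FPKM) had a larger share than AOS 2 (159.18 of 622085.7 FPKM).

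Acr, on chromosome 15 from 89568326 to 89574585, codes for acrosin itself, the serine protease of the acrosome. It was steady in 17 libraries, between 187 and 207 FPKM, and reached 244 FPKM in HFD-AOS 1. The HFD-AOS values of 244, 203 and 206 FPKM lay above the control values of 192, 190 and 199 FPKM. The log2 fold change of 0.16 did not pass (SE 0.056, limma adjusted p = 0.113), and it was 0.079 without HFD-AOS 1.

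Acrv1, on chromosome 9 from 36693220 to 36698843, codes for the acrosomal protein SP-10. It had the widest spread within groups of the 10, with an SD of 0.121 on the log2 scale. The median SD was 0.0972 over all genes tested and 0.0710 over those with a mean of at least 50 FPKM. HFD-AOS alone spanned 388, 342 and 273 FPKM, around control at 289, 300 and 307 FPKM. Acrv1 was lowest in AOS, at 282, 301 and 264 FPKM, and HFD stood at 315, 342 and 302 FPKM. Without HFD-AOS 3 the call in HFD-AOS against control extended to Acrv1 (log2 fold change 0.28, limma adjusted p = 0.0363), against 0.15 and 0.374 with all libraries.

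Spaca3, on chromosome 11 from 80858365 to 80867814, codes for a lysozyme-like protein of the acrosome. It was at 130, 133 and 147 FPKM in control, at 152, 159 and 150 FPKM in HFD-AOSFMT and at 148, 154 and 162 FPKM in HFD-conFMT. Neither of the FMT groups overlapped control, while AOS (140, 149 and 141 FPKM), HFD (148, 156 and 136 FPKM) and HFD-AOS (137, 170 and 142 FPKM) did. The log2 fold changes against control were 0.17 for HFD-AOSFMT (SE 0.073, limma adjusted p = 0.249) and 0.18 for HFD-conFMT (SE 0.073, limma adjusted p = 0.208), so neither passed.

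**Figure D2:**
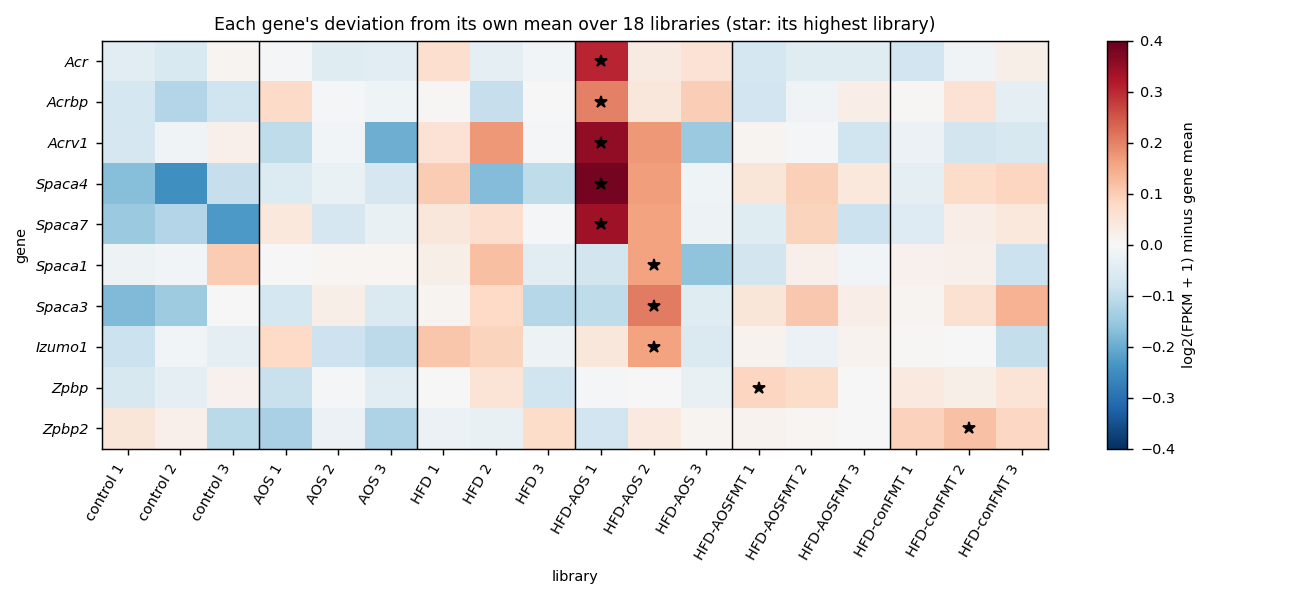
Log2(FPKM + 1) of each gene minus its mean over the 18 libraries (colour scale), with genes as rows, libraries as columns, vertical lines between groups and a star at each gene's highest library. The stars of 5 genes fall in HFD-AOS 1 and those of 3 in HFD-AOS 2, with Zpbp in HFD-AOSFMT 1 and Zpbp2 in HFD-conFMT 2.

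Among the genes of the acrosomal membrane and structure, Spaca4 codes for a small lipid-anchored protein that sperm use to cross the zona pellucida. Its single exon lies on chromosome 7 from 45725107 to 45725813 on the minus strand. It was at 147, 140 and 156 FPKM in control and at 217, 187 and 164 FPKM in HFD-AOS. The groups did not overlap (log2 fold change 0.35, SE 0.083, limma adjusted p = 0.0398). AOS was at 160, 163 and 158 FPKM, HFD-AOSFMT at 172, 177 and 171 FPKM and HFD-conFMT at 162, 175 and 176 FPKM, each above all control values. HFD, at 178, 147 and 155 FPKM, overlapped control. All 707 bases of Spaca4 lie within the span of Fam83e on the opposite strand, which was at 22.3 ± 0.682 FPKM in control and 25.7 ± 2.31 FPKM in HFD-AOS (log2 fold change 0.19, limma adjusted p = 0.112). The strand setting of the counting is not given in the sources used here, so reads of Spaca4 and Fam83e may not be separated where they overlap. The part of Fam83e in the Spaca4 values was not tested.

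Spaca1, on chromosome 4 from 34024874 to 34050191, codes for a protein of the inner acrosomal membrane that is needed to shape the vesicle. Its group means stayed between 159 and 166 FPKM. In HFD-AOS the libraries ran from 145 FPKM, the lowest of the 18, to 181 FPKM, the highest. It had the largest fall of the 10 in HFD-AOS against control, a log2 fold change of -0.048 (SE 0.067, limma adjusted p = 0.725). That value turned to 0.020 without HFD-AOS 3.

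Zpbp and Zpbp2 code for related zona pellucida-binding proteins of the acrosomal matrix, which also help form the vesicle. Zpbp, on chromosome 11 from 11279626 to 11462408, was the steadiest of the 10, between 67.5 and 76.3 FPKM, and HFD-conFMT (73.8, 73.0 and 74.8 FPKM) lay above control (68.7, 70.0 and 72.8 FPKM). It overlaps Spata48 by 315 bases on the opposite strand, a gene at 88.1 FPKM on average. Zpbp2, on chromosome 11 from 98551097 to 98558665, was at 236, 240 and 235 FPKM in HFD-conFMT. All 3 lay above every one of the other 15 libraries, the highest of which was 233 FPKM in HFD 3. The share of all genes with such a separation was not taken. As a share of each library's total, the separation did not hold. HFD 3 (233.29 of 609120.2 FPKM) had a larger share than HFD-conFMT 3 (234.92 of 627761.7 FPKM). Control was at 229, 225 and 206 FPKM and HFD-AOSFMT at 224, 223 and 222 FPKM. The log2 fold change of Zpbp2 in HFD-conFMT was 0.11 against control (SE 0.046, limma adjusted p = 0.212) and 0.091 against HFD (SE 0.046, limma adjusted p = 0.440). Neither passed. Without control 3 the difference from control was 0.064 (limma adjusted p = 0.543), without HFD-conFMT 2 it was 0.10 (limma adjusted p = 0.394) and without both it was 0.054 (limma adjusted p = 0.715).

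Izumo1 codes for the sperm membrane protein that binds Juno on the egg and is required for fusion. It lies on chromosome 7 from 45621811 to 45628823, 96283 bases from Spaca4. Its libraries ran from 65.9 to 79.3 FPKM with a median of 70.7, and every group overlapped control (66.7, 70.4 and 69.0 FPKM). Its largest mean was in HFD at 74.0 ± 3.61 FPKM and its smallest in control at 68.7 ± 1.86 FPKM. Izumo1 overlaps Rasip1 by 1336 bases on the same strand, a gene at 1.99 FPKM on average.

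HFD was set against control for the effect of the diet alone. All 10 genes were nominally higher, with a median log2 fold change of 0.078 against -0.011 over all genes, but limma called 0 of the 10, as it called 0% of all genes. Quantile normalization gave 7 of 10 higher and a median of 0.035, and the median was 0.039 without HFD 1. At an unadjusted p under 0.05 there was 1 of the 10 and 884 of all genes. The largest difference was that of Spaca7 (0.20, SE 0.071, limma adjusted p = 0.670), and the smallest that of Spaca1 (0.0084). Spaca7 was the 1 gene whose 3 HFD values lay above all control values, as 5.17% of all genes did.

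In AOS against control, the comparison without the diet, limma called 0 of the 10 and 0.0229% of all genes, with 1 of the 10 and 2071 of all genes at an unadjusted p under 0.05. The median over the 10 was 0.0050 against -0.029 over all genes, and -0.0035 with quantile normalization. Spaca7 had the largest rise (0.15, SE 0.071, limma adjusted p = 0.325) and Acrv1 the largest fall (-0.083, SE 0.090, limma adjusted p = 0.684). Acrbp, Spaca4 and Spaca7 lay above control in all 3 libraries, 3 of the 10 where 7.96% of all genes did. As a share of each library's total, all 3 of these genes overlapped control. For Acrbp, control 3 (436.1 of 588080.8 FPKM) had a larger share than AOS 2 (458.9 of 622085.7 FPKM).

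In HFD-AOS against control the values lay above control without overlap for 4 of the 10, Acr, Acrbp, Spaca4 and Spaca7, where 7.13% of all genes did. No gene of the 10 lay below without overlap in any of the 5 comparisons with control. The share of all genes that did so is not given here, so this count cannot be set against it. At an unadjusted p under 0.05 were 4 of the 10 and 2750 of all genes.

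**Figure D3:**
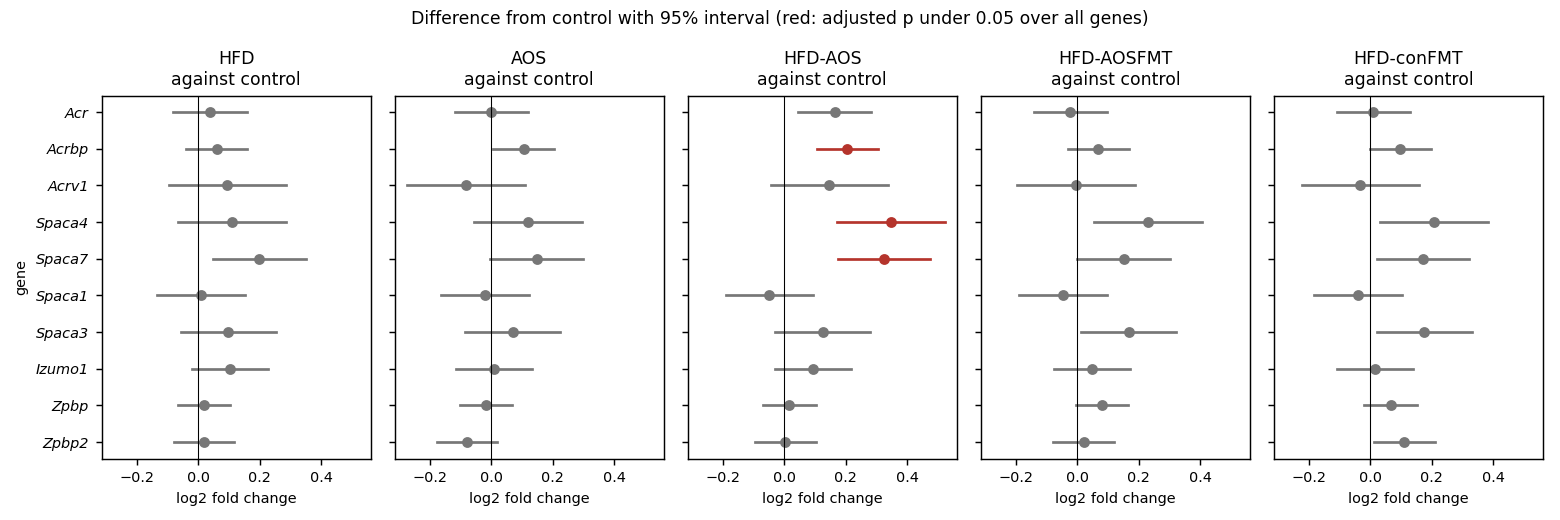
Log2 fold change against control (horizontal axis, limma on log2(FPKM + 1)) of each of the 10 genes with its 95% interval, 1 panel for each of the 5 other groups, all of which share the control libraries. Red marks an adjusted p under 0.05 over all genes, reached by Acrbp, Spaca4 and Spaca7 in HFD-AOS.

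The groups given an FMT on the diet were set against control and against HFD, the question being whether the FMT moved the testis away from the state on the diet. Against control, limma called 0 of the 10 in HFD-AOSFMT (0.382% of all genes were called) and 0 of the 10 in HFD-conFMT (2.09% of all genes). At an unadjusted p under 0.05 were 2 and 4 of the 10, and 2297 and 2477 of all genes. Spaca4 rose most in each, by 0.23 in HFD-AOSFMT (SE 0.083, limma adjusted p = 0.168) and by 0.21 in HFD-conFMT (SE 0.083, limma adjusted p = 0.186), neither of which passed. Spaca1 had the lowest fold change in each, -0.046 (limma adjusted p = 0.765) and -0.041 (limma adjusted p = 0.788). Values lay above control without overlap for 3 of the 10 in HFD-AOSFMT (Spaca3, Spaca4 and Spaca7; 11% of all genes). In HFD-conFMT they did so for 6 of the 10 (Acrbp, Spaca3, Spaca4, Spaca7, Zpbp and Zpbp2; 12.7% of all genes).

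In HFD-AOS against HFD limma called 0 of the 10 and 0% of all genes, with 3 of the 10 and 1664 of all genes at an unadjusted p under 0.05. The largest difference was Spaca4 at 0.24 (SE 0.083, limma adjusted p = 0.287) and the lowest Spaca1 at -0.057 (SE 0.067, limma adjusted p = 0.769). Acrbp alone of the 10 lay above HFD in all 3 libraries (4.90% of all genes). In HFD-AOSFMT against HFD limma called 0 of the 10 and 0.0229% of all genes, and 0 of the 10 and 1287 of all genes had an unadjusted p under 0.05. Spaca4 was highest at 0.12 (SE 0.083, limma adjusted p = 0.659) and Acrv1 lowest at -0.10 (SE 0.090, limma adjusted p = 0.754), and Acr alone lay below HFD in all 3 libraries (8.88% of all genes).

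In HFD-conFMT against HFD limma called 0 of the 10 and 0% of all genes, with 0 of the 10 and 1607 of all genes at an unadjusted p under 0.05. Spaca4 was highest at 0.098 (SE 0.083, limma adjusted p = 0.657) and Acrv1 lowest at -0.13 (SE 0.090, limma adjusted p = 0.587). Zpbp2 lay above HFD in all 3 libraries (10.3% of all genes) and Acrv1 below (9.83%). Between the FMT groups, HFD-AOSFMT against HFD-conFMT, limma called 0 of the 10 and 0.00763% of all genes, with 0 of the 10 and 409 of all genes at an unadjusted p under 0.05. Izumo1 was highest at 0.031 (SE 0.058, limma adjusted p = 1.00) and Zpbp2 lowest at -0.090 (SE 0.046, limma adjusted p = 1.00). Zpbp2 lay below without overlap, as 5.39% of all genes did.

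Whether the AOS effect differed with the diet was tested as an interaction. Limma called 0 of the 10 and 0% of all genes, and 0 of the 10 and 899 of all genes had an unadjusted p under 0.05. The difference of effects ran from -0.043 for Spaca3 (SE 0.103, limma adjusted p = 0.947) to 0.13 for Acrv1 (SE 0.128, limma adjusted p = 0.859). The F test over the 6 groups called 0 of the 10 and 0.328% of all genes, with Spaca7 (limma adjusted p = 0.176), Acrbp (limma adjusted p = 0.179) and Spaca4 (limma adjusted p = 0.180) nearest to the threshold. Of the 10, 5 had an unadjusted p under 0.05 in this test (Acr, Acrbp, Spaca4, Spaca7 and Zpbp2), as had 2361 of all genes, or 18%.

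Summed over the 10 genes, control was lowest at 1882 ± 22.4 FPKM, followed by AOS at 1920 ± 37.5, HFD-AOSFMT at 1962 ± 28.7, HFD at 1981 ± 35.8 and HFD-conFMT at 1984 ± 23.7. HFD-AOS was highest at 2103 ± 145 FPKM, from 1949 FPKM in HFD-AOS 3 to 2236 FPKM in HFD-AOS 1. The sum was between 0.311% and 0.351% of a library. On that scale control did not stand lowest. Its shares of 0.3106%, 0.3166% and 0.3245% overlapped those of every other group. AOS was at 0.3192%, 0.3121% and 0.3105%, HFD-AOSFMT at 0.3144%, 0.322% and 0.3125% and HFD-conFMT at 0.3163%, 0.3178% and 0.315%. HFD was at 0.3247%, 0.3376% and 0.3191% and HFD-AOS at 0.3511%, 0.3398% and 0.3172%. HFD-AOS 2 was above the mean of the 18 libraries for 10 of 10 genes and HFD-AOS 1 for 6 of 10. Acr, Acrbp, Acrv1, Spaca4 and Spaca7 peaked in HFD-AOS 1, while Spaca1, Spaca3 and Izumo1 peaked in HFD-AOS 2.

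The other genes of the acrosome and of fusion were read from lists written from general knowledge, of which 22 for acrosome assembly, 23 for acrosomal content and 20 for sperm-egg adhesion and fusion were tested. The lists were chosen with earlier results of these data known, so their calls are no independent check on the 10 genes. Against control, limma called 2.48% of all genes in HFD-AOS, 2.09% in HFD-conFMT and 0.382% in HFD-AOSFMT. In HFD-AOS against control, 3 of 23 content genes were called, all higher: the trypsin inhibitor Spink2 (1165 ± 188 against 893 ± 63.0 FPKM), Prss55 (169 ± 3.16 against 151 ± 1.4), a serine protease, and Dkkl1 (1672 ± 252 against 1325 ± 37.4), an acrosomal glycoprotein. Of 20 adhesion and fusion genes, 2 were called, both higher: Izumo2, a relative of Izumo1, at 179 ± 8.87 against 138 ± 5.66 FPKM, and Ly6k at 182 ± 13.04 against 150 ± 10.8. Of 22 assembly genes 1 was called, the Golgi protein Tmf1, which fell from 48.3 ± 1.59 to 41.0 ± 1.29 FPKM. Over these and the cell stage lists 9 genes were called in this comparison, of which Tmf1 and Izumo2 were still called without HFD-AOS 1 (limma adjusted p = 0.0309 and 0.0202) and, likewise, without control 3 (0.0248 and 0.0171). The other 7 were not called in either fit. Izumo2 was the 1 gene of all lists that the F test over the 6 groups called (limma adjusted p = 0.0401). In HFD-conFMT against control Prss55, Izumo2 (174 ± 11.4 FPKM) and Izumo4 (115 ± 6.98 against 97.5 ± 1.42) were called higher, and in HFD-AOSFMT only Prss55 (171 ± 1.04), which was not called without control 3 (limma adjusted p = 0.143) or without HFD-conFMT 2 (limma adjusted p = 0.0682). In the exocytosis list, of 10 tested genes, 0 were called in any comparison by limma, with 0 to 3 at an unadjusted p under 0.05, and the 3 most abundant were the oocyte-activating phospholipase Plcz1 (161 FPKM on average), Plcd4 (73.9) and Napa (53.7).

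Markers of cell stages were read beside these genes. In HFD-AOS against control, where 41.2% of all genes were higher, the round spermatid list, which holds Acrv1 too, had 11 of 13 genes higher, of which Sun5, which joins the sperm head and tail, was called (160 ± 16.0 against 126 ± 2.47 FPKM). The elongating spermatid list had 11 of 12 higher, with 2 called, the protamines Prm2 (15410 ± 1921 against 11440 ± 1361 FPKM) and Prm3 (880 ± 103 against 586 ± 57.6). The spermatocyte list had 9 of 12 lower and 0 called in that comparison, with 3 at an unadjusted p under 0.05. The spermatid lists leaned the same way in the other groups against control, where 40.2% to 46.7% of all genes were higher. Of the elongating list, 10 of 12 genes were higher in HFD, AOS and HFD-conFMT and 11 in HFD-AOSFMT. Of the round list, 11 of 13 were higher in HFD, 9 in AOS and 10 in each FMT group. The elongating list's mean deviation was 0.196 in HFD-AOS 1, the highest of all libraries, and its summed level ran from 53310 to 59740 FPKM in control and from 64120 to 74490 FPKM in HFD-AOS. That sum ran from 64800 to 66580 FPKM in AOS, 61670 to 64320 in HFD-AOSFMT, 64460 to 69160 in HFD-conFMT and 50060 to 64630 in HFD. The round spermatid list summed to between 4916 and 4927 FPKM in control and to between 5106 and 5280 FPKM in HFD-AOS, and the spermatocyte list to 3133 to 3246 against 2926 to 3333 FPKM. As a share of each library's total, the round list did not separate these groups. Control 3 (4916 of 588080.8 FPKM) had a larger share than HFD-AOS 1 (5106 of 637004.9 FPKM). In some other libraries the elongating list and the 10 genes parted. In the AOS libraries the mean deviation of the 10 was -0.025, -0.024 and -0.067 and that of the elongating list 0.036, 0.064 and 0.016. In HFD 2 the 10 were at 0.025 and the elongating list at -0.21, its lowest value, and in HFD-AOS 3 they were at -0.032 and 0.064. The round spermatid list was at 0.0057, 0.0002 and -0.0295 in the AOS libraries, at -0.0215 in HFD 2 and at -0.0223 in HFD-AOS 3. In control it was at -0.0937, -0.064 and -0.0469, beside -0.0801, -0.0732 and -0.0395 for the 10. The part of these shifts in the values of the 10 genes was not tested.

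**Figure D4:**
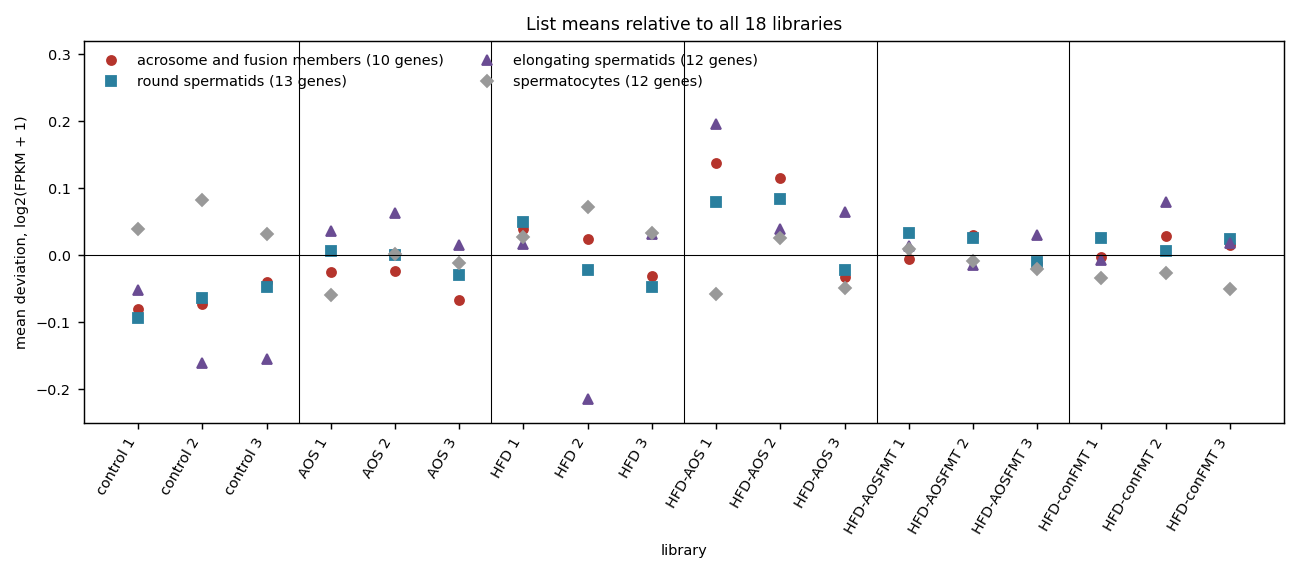
Mean deviation of log2(FPKM + 1) from the average of the 18 libraries (vertical axis) for the 10 genes and for lists of spermatocyte, round and elongating spermatid genes, in each library (horizontal axis). The 10 genes and both spermatid lists lie below 0 in all 3 control libraries, and all 3 lie above 0 in HFD-AOS 1 and HFD-AOS 2.

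In HFD-conFMT against control the spermatid kinase Tssk2 (401 ± 7.27 against 355 ± 7.78 FPKM) rose, and the meiotic genes Sycp2 (71.4 ± 2.57 against 86.5 ± 3.02 FPKM) and Piwil1 (102 ± 2.00 against 115 ± 4.64 FPKM) fell. Of 8 Leydig cell genes, 3 were higher and 5 lower with a median of -0.058, and 1 was called, Hsd3b1 (120 ± 12.4 against 71.2 ± 9.17 FPKM). Of the 7 list genes called in this comparison, 0 were called without HFD-conFMT 2 (limma adjusted p from 0.0574 to 0.181), and only Izumo2 was without control 3 (limma adjusted p = 0.0271). Of the lists of spermatogonia (Uchl1 at 27.6, Dmrt1 at 9.24 and Stra8 at 8.13 FPKM on average), Sertoli cells (Clu at 485, Aard at 82.9 and Cldn11 at 33.6), macrophages (C1qb at 14.5, C1qa at 7.02 and C1qc at 6.56) and blood (Hba-a1 at 75.0, Alas2 at 9.93 and Hbb-bs at 8.89), 0 genes were called in any comparison by limma, with 0 to 4 of a list at an unadjusted p under 0.05. In the epididymal list 2 of 10 genes passed the filter, Crisp1 and Rnase10 (2.50 FPKM on average), with 0 called and 0 or 1 at an unadjusted p under 0.05, and Adam7 averaged 0.746 FPKM.

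Among 12032 named genes outside these lists, the 5 whose libraries followed the mean of the 10 most closely were Clk3, Sumo2, Ak8, Mtfr1 and Klhl10. Likeness was the root mean square difference of centred log2 values over the 18 libraries, which was 0.0323 for Clk3 and 0.0356 for Klhl10, against a median of 0.119 over the candidates. The 10 genes themselves ran from 0.0559 for Izumo1 to 0.0974 for Spaca4. All 5 of these genes reached their highest value in HFD-AOS 1, Clk3 at 68.2 FPKM and Klhl10 at 323 FPKM. They were picked for likeness to a mean that itself peaks in HFD-AOS 1, so this follows largely from the choice.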

How the data were processed

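RNA sequencing was done on 18 testis libraries. Per the labels' protocols, 1 ug of total RNA, isolated with Trizol and columns, went into standard Illumina libraries. Mapping used Bowtie 0.12.2 and mm10, per the submitters' processing notes. How genes were counted, on which annotation and with what strand setting, is not given in the sources used here. What the authors deposited is 1 table whose header names no unit, read here as FPKM to 2 decimals because the lowest nonzero value falls with transcript length (among 1565 genes in 4 length classes, its median was 0.09 in the shortest and 0.02 in the longest). Symbols listed more than once (3 symbols, 6 rows) were dropped.

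Values were taken as log2(FPKM + 1), which understates changes of low genes. One limma 3.58.1 model (R 4.3.3) of 6 group means with a mean-variance trend (12 residual degrees of freedom) gave two-sided p-values, adjusted by Benjamini-Hochberg over the 13105 genes. The model was tested on simulated data. The planted changes were larger than any found among the 10 genes, so that test does not cover changes of their size. Coordinates and gene overlaps come from GENCODE vM21, matched by symbol for 20247 symbols, and promoters from RefSeq. The members and lists were chosen with earlier results of these data known. All 10 genes were described by level. Statistics were named for the largest rise and fall and every called gene of a comparison, for called genes of other lists, and otherwise for the 3 of highest mean. Alternatives changed the pseudocount, filter, normalization, replicate block, library weights, length and GC, and left libraries out. Figures used matplotlib 3.10.9.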

Additional observations from a re-analysis of the deposited data

How the results depend on the processing

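Of the 10 genes, the 3 calls in HFD-AOS against control became 0 with quantile normalization, with array weights and when control 3 and HFD-conFMT 2 were both left out, and 1 (Spaca7) with the length and GC adjustment. Fits with 1 library left out gave 0 to 4 calls: 0 without control 2, control 3 or HFD-AOS 1, 1 without control 1, HFD-AOS 2 or HFD-AOSFMT 2, and 4 without HFD-AOS 3. Over all these settings the log2 fold change stayed between 0.11 and 0.24 for Acrbp, 0.24 and 0.44 for Spaca4 and 0.23 and 0.41 for Spaca7. Array weights gave 1 call in HFD-AOSFMT against control (Spaca4, limma adjusted p = 0.0492). The length and GC adjustment gave 1 in HFD-conFMT against control (Zpbp, limma adjusted p = 0.0480). Leaving out 1 library gave 0 to 1 in the F test over the groups (1 without HFD-AOS 3). In the other 7 tests the count stayed 0.

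Signs turned for small values. The log2 fold change of Spaca1 was 0.0056 with array weights in HFD-AOS against control and ran from -0.14 to 0.020 with 1 library left out. Against HFD it was 0.0062 with array weights and ran from -0.15 to 0.012. Izumo1 between the FMT groups ran from -0.0013 to 0.048 with 1 library left out. The difference of AOS effects for Spaca3 was 0.031 with array weights and ran from -0.14 to 0.017 with 1 library left out. The cause was not tested.

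Over all genes, leaving out 1 library moved the 325 calls of HFD-AOS against control to between 16 and 427, the 274 of HFD-conFMT against control to between 6 and 592, the 50 of HFD-AOSFMT against control to between 1 and 242, and the 43 of the F test to between 2 and 146. Other settings gave 25 to 500, 4 to 925, 1 to 576 and 1 to 130. The 3 calls of AOS against control ran from 0 to 240 over all settings, the 3 of HFD-AOSFMT against HFD from 1 to 21, and the 1 between the FMT groups from 1 to 15. The 0 calls rose to at most 17 in HFD-conFMT against HFD, 4 in HFD-AOS against HFD and 1 in HFD against control and in the difference of AOS effects. The replicate numbers do not pair the libraries (2 of 45 same-numbered pairs correlated over 0.1, median r -0.0091), and with them as a replicate block 3 of the 10 were called in HFD-AOS against control and 0 in the other comparisons. With no depth in the table, counting error could not be separated from the spread between libraries.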
